A study of Homo sapiens with 18 samples.

Results

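GR binding regions (GBR) called after depletion of the chromatin remodeler CHD9 were set against those called after depletion of the chromatin remodeler BRM, in cells that still contained Hic-5. Both sets came from U2OS-GRα, a human osteosarcoma line that stably expresses the α form of the glucocorticoid receptor (GR). The siCHD9siNS group had received siRNA against CHD9 together with a nonspecific siRNA (siNS), and the siBRMsiNS group siRNA against BRM together with siNS. In each group 48 h of siRNA exposure was followed by 100 nM dexamethasone (dex), a synthetic glucocorticoid, for 1 h, and GR occupancy was measured by ChIP-seq. The other groups had the same dex treatment after siNSsiNS (the control), siHic5siNS, siCHD9siHic5 or siBRMsiHic5. All groups had 2 ChIP replicates, which the authors pooled into 1 peak list per group, so the lists carried no replicate spread and compare 2 lists rather than replicated conditions. A peak is a called interval of GR enrichment, and a region missing from a list may still have carried GR below the cutoff of that list. Read depth per library is not in the lists and was not used here.

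The siCHD9siNS list held 1415 GBR and the siBRMsiNS list 1278, together 2693 of the 20642 peaks of all 6 lists. Members were assigned by overlap of at least 1 bp. Of the siCHD9siNS GBR, 481 (34.0%, 95% Wilson interval 31.6 to 36.5%) overlapped no siBRMsiNS GBR and are called CHD9-list only. Of the siBRMsiNS GBR, 343 (26.8%, 24.5 to 29.3%) overlapped no siCHD9siNS GBR and are called BRM-list only. The remaining 934 siCHD9siNS and 935 siBRMsiNS GBR were in both lists. CHD9-list only sites were called after loss of CHD9 and not after loss of BRM, and BRM-list only sites the converse. Only those also called in the control, 330 CHD9-list only and 310 BRM-list only sites, can be read as spared by that loss. All intervals cover counting error over sites only.

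GR is a hormone-activated transcription factor that binds glucocorticoid response elements (GRE), a pair of inverted half-sites, or reaches DNA at sites occupied by other factors such as AP-1, the FOS and JUN dimers. BRM (SMARCA2) is an ATPase of the SWI/SNF complexes and CHD9 is a member of the chromodomain helicase DNA-binding family. Both use ATP to move or remove nucleosomes, which allows factors to reach DNA wrapped in chromatin. Hic-5, the product of TGFB1I1, is a LIM-domain protein that shuttles between sites of cell attachment and the nucleus, where it modulates GR activity.

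The sequence feature that differed most between the classes was AP-1, and the windows that show it are given first. The windows are examples and do not reflect the class shares given below. Each is the 200 bp around the summit of a GBR, the plus strand of the GRCh38 reference, in lower case with every GRE match (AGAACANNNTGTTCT, at most 2 mismatches at the 12 named positions) and every AP-1 match (TGACTCA or TGAGTCA) in capitals. The first 5 were CHD9-list only. They were the site with the best rank of the class, upstream of TIPARP; a site in an intron of RERG with the AP-1 match close to the summit; the site next to the METTL7B start; a site near TTC32 with 2 AP-1 matches; and a site in an intron of ULK4, where a GRE and an AP-1 match lay next to each other.
CHD9-list only, TIPARP, chr3:156615864-156616063: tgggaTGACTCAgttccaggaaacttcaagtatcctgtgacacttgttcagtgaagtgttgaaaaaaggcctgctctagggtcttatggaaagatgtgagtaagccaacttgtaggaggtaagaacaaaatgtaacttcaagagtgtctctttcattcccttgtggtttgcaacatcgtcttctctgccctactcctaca
CHD9-list only, RERG intron, chr12:15274767-15274966: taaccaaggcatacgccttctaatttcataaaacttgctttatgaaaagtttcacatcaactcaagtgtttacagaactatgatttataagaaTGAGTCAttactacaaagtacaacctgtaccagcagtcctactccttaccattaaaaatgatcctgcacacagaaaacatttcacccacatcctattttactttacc
CHD9-list only, METTL7B, chr12:55681405-55681604: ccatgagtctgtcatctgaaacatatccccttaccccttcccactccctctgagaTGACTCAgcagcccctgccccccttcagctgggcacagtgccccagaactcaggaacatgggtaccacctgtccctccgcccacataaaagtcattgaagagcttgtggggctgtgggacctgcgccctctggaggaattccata
CHD9-list only, TTC32, chr2:19801478-19801677: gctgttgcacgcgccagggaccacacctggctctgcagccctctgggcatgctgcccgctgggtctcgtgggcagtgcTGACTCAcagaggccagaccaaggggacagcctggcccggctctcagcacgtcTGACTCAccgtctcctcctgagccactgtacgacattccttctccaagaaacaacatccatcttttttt
CHD9-list only, ULK4 intron, chr3:41327813-41328012: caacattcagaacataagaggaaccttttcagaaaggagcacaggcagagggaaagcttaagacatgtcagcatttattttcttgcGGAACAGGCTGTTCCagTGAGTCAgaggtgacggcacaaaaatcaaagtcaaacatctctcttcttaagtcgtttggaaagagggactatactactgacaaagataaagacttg

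The next 2 were BRM-list only and held a GRE match close to the summit and no AP-1 match. The last was in both lists, in an intron of PKD1L1, and had a GRE match with 1 mismatch at the summit. Opposite cases among the strongest sites were not printed. A CHD9-list only site near PWWP2A held a GRE and no AP-1 match, and a BRM-list only site in an F2RL1 intron the reverse. In the TIPARP window above, the AP-1 match was centered 91.5 bp from the summit.
BRM-list only, SH2D6, chr2:85447510-85447709: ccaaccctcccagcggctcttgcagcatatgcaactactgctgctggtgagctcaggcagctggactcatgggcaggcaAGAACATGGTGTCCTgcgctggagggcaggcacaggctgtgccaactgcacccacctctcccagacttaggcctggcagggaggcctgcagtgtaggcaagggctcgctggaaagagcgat
BRM-list only, PIAS1, chr15:67954865-67955064: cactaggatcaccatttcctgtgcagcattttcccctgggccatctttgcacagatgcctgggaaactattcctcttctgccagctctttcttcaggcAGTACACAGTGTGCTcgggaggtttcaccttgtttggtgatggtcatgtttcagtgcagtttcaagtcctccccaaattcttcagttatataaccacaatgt
Both lists, PKD1L1 intron, chr7:47757948-47758147: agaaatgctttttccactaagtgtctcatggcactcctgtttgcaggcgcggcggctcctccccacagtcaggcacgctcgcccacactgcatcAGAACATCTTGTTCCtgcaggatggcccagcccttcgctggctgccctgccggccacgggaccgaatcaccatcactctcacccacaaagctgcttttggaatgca

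An AP-1 match lay within the 200 bp window of 152 of the 481 CHD9-list only sites (31.6%, 27.6 to 35.9%) and of 26 of the 343 BRM-list only sites (7.58%, 5.23 to 10.9%). The difference was 24.0 percentage points (95% Newcombe interval 18.8 to 28.9). Sites in both lists lay between the classes, at 204 of 934 (21.8%). Windows 5 kb to either side held a match in 3.22% of cases around CHD9-list only sites, in 4.66% around BRM-list only sites and in 3.27% around sites in both lists. The BRM-list only share of 7.58% was thus above that of its neighbouring windows, whose interval (3.32 to 6.51%) overlapped its own. In all siNSsiNS GBR the share was 17.7%. BRM-list only sites were thus 14.3 points below the sites in both lists (-17.9 to -10.1) and CHD9-list only sites 9.76 points above them (4.90 to 14.7). In 1 kb windows the shares were 54.1% and 21.9%. Where a match was found within 1 kb, its median distance to the summit was 79.5 bp at 260 CHD9-list only sites and 170 bp at 75 BRM-list only sites.

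**Figure D1:**
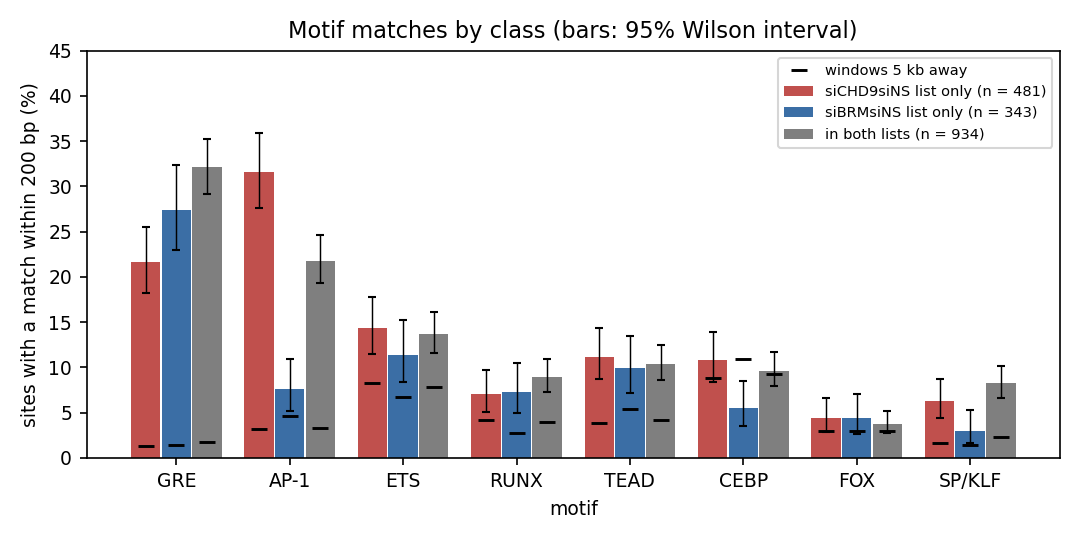
Share of GBR with at least 1 motif match in the 200 bp around the summit (percent, vertical axis) for 8 motifs, in CHD9-list only, BRM-list only and shared sites; bars carry 95% Wilson intervals and black dashes give the share in windows 5 kb away. AP-1 stands at 31.6% in CHD9-list only sites and 7.58% in BRM-list only sites, whose dash is at 4.66%.

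For GRE matches no difference was shown by the settings first chosen, and other settings gave different answers. Matches were found at 104 CHD9-list only sites (21.6%), 94 BRM-list only sites (27.4%) and 300 sites in both lists (32.1%), against 1.35 to 1.77% in neighbouring windows. The CHD9-list only minus BRM-list only difference of -5.78 points had an interval from -11.8 to 0.131, which includes 0. The interval left out 0 with 1 kb windows (-9.04 points, -15.4 to -2.72), with at most 1 mismatch (-3.34, -6.88 to -0.197) and with at most 3 mismatches (-12.3, -18.9 to -5.44), whereas with all lists at a −log10 q-value of at least 20 the sign turned (1.36, -9.81 to 11.7). GRE matches were centered near the summit in all classes, at a median distance of 22.5 bp in CHD9-list only and 19.0 bp in BRM-list only sites. A GRE and an AP-1 match occurred in the same 200 bp at 34 CHD9-list only, 6 BRM-list only and 51 shared sites (7.07, 1.75 and 5.46%).

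The other motifs searched on both strands were ETS (CCGGAAG or CAGGAAG), RUNX (TGTGGTT), TEAD (CATTCCA), CEBP (TTGCNNAA), FOX (TGTTTAC) and SP/KLF (GGGCGGG). ETS matches were found at 14.3% of CHD9-list only and 11.4% of BRM-list only sites, a difference of 2.97 points (-1.77 to 7.48), with 6.71 to 8.32% in neighbouring windows. RUNX, TEAD and FOX also had intervals that included 0. CEBP matches were found at 10.8% and 5.54% (difference 5.27 points, 1.42 to 8.93). Neighbouring windows held a CEBP match in 8.84% and 10.9% of cases, so that the BRM-list only share lay below its own background. SP/KLF matches were found at 6.24% and 2.92% (3.32 points, 0.327 to 6.17), and that interval included 0 among sites called in the control. Altogether 268 CHD9-list only sites (55.7%) and 139 BRM-list only sites (40.5%) held at least 1 GRE, AP-1 or ETS match.

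AP-1 was also examined with the control GBR as the starting set, from the same lists. Of the 457 siNSsiNS GBR with an AP-1 match, 291 (63.7%, 59.2 to 68.0%) were called after CHD9 depletion and 217 (47.5%, 42.9 to 52.1%) after BRM depletion. Of the 2125 without one, 964 (45.4%) and 1017 (47.9%) were called. Of the control GBR called in exactly 1 of the lists, the share called after CHD9 depletion was 81.9% with an AP-1 match (95 of 116) and 44.9% without (235 of 523), an odds ratio of 5.54 (95% Woolf interval 3.35 to 9.17). Matched on strength in the control list, in 5 groups of control GBR by −log10 p-value, the common odds ratio was 5.20 (3.12 to 8.67), an estimate added after the data were seen. The gap was widest in the middle group, where 66.7% of AP-1 GBR were called in siCHD9siNS and 29.5% in siBRMsiNS, while in the strongest group 100% and 97.0% were called. For GRE the odds ratio was 0.737 (0.514 to 1.06), and matched on strength 0.826 (0.568 to 1.20), both intervals including 1.

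**Figure D2:**
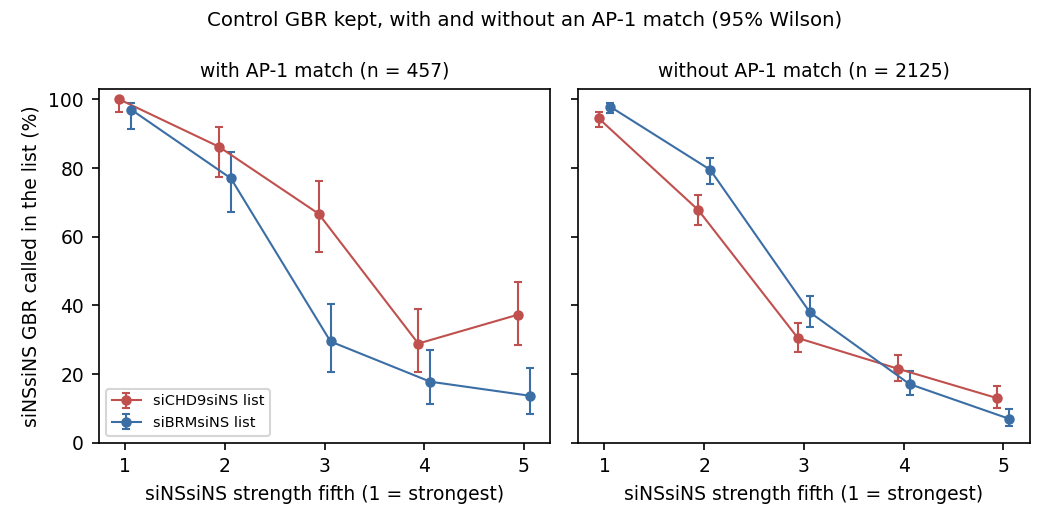
Percent of siNSsiNS GBR called in the siCHD9siNS list and in the siBRMsiNS list, over 5 groups of equal size by strength in the control list (1 is strongest), for the 457 GBR with an AP-1 match within 200 bp (left) and the 2125 without (right); bars are 95% Wilson intervals. With a match, the siCHD9siNS points lie above the siBRMsiNS points in every group (66.7% against 29.5% in the third).

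A second pair of lists, from cells also depleted of Hic-5, allowed the AP-1 comparison at other sites and with other libraries. Among siHic5siNS GBR that overlapped neither the siCHD9siNS nor the siBRMsiNS list, 299 were called in siCHD9siHic5 and not in siBRMsiHic5, and 1101 the other way round. AP-1 matches were found at 35.5% of the first and 18.3% of the second, a difference of 17.1 points (11.4 to 23.1). GRE matches were found at 14.0% and 19.7% (-5.66 points, -9.92 to -0.728). These lists differed in length and cutoff, with 2451 GBR and a lowest −log10 q-value of 7.74 in siCHD9siHic5 against 3383 and 14.2 in siBRMsiHic5. With both at 14.2, a setting added after the data were seen, 48 and 1504 GBR were left. AP-1 matches were then at 31.2% and 21.3% (9.91 points, -1.60 to 24.1) and GRE matches at 12 of 48 and 290 of 1504 (5.72 points, -4.57 to 19.6), both intervals including 0.

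The values that set the classes, namely the calls and strengths in the siCHD9siNS and siBRMsiNS lists, are described here without a test. Strength was taken as the −log10 p-value of the peak caller, used only for ranks within a list. CHD9-list only sites had a median of 14.5 in their list (range 11.6 to 41.6), against 24.5 for the sites in both. BRM-list only sites had a median of 13.6 (range 11.3 to 38.5), against 22.7. The strongest peaks of each list were nearly all in the other list as well. In the top 353 peaks of siCHD9siNS 97.5% were in both lists, and 99.1% in the top 319 of siBRMsiNS, whereas in the weakest 354 and 320 the shares were 34.7% and 42.5%. The best rank of a one-list site was 214 in siCHD9siNS and 181 in siBRMsiNS. Near misses of position were rare. The smallest overlap of shared peaks was 242 bp, the smallest gap from a one-list peak to a peak of the other list was 144 bp, and only 5 CHD9-list only and 2 BRM-list only sites had a peak of the other list within 500 bp.

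**Figure D3:**
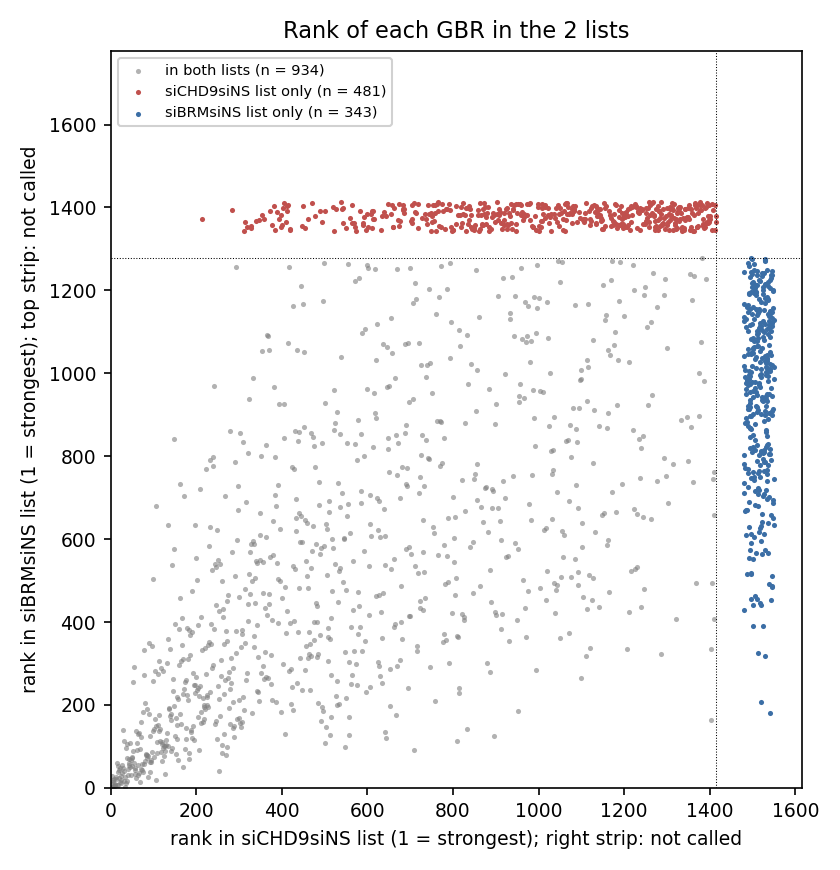
Rank of each GBR in the siCHD9siNS list (horizontal) and the siBRMsiNS list (vertical), 1 being the strongest; gray points are the 934 shared sites, the red strip at the top holds the 481 CHD9-list only sites and the blue strip at the right the 343 BRM-list only sites. The corner of best ranks holds shared sites alone, and the one-list strips begin at ranks 214 and 181.

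Calls in the 4 lists that played no part in the assignment differed between the classes in 2 of them. In siNSsiNS, 330 of 481 CHD9-list only sites were called (68.6%), against 310 of 343 BRM-list only sites (90.4%), a difference of -21.8 points (-26.8 to -16.4). In siHic5siNS the shares were 96.7% and 96.2% (0.464 points, -2.08 to 3.34). In siCHD9siHic5 they were 87.5% and 50.4% (37.1 points, 30.9 to 43.0). In siBRMsiHic5 they were 88.4% and 87.5% (0.894 points, -3.54 to 5.58). Sites in both lists were called in all 4 at 97.1% or more. CHD9-list only sites were found at like rates in the doubly depleted lists, including the one without BRM. The BRM-list only sites were missing from siCHD9siHic5 at 170 of 343. Control GBR in general were also missing from siCHD9siHic5 more often than from siBRMsiHic5. Of all 2582 siNSsiNS GBR, 20.7% were in siBRMsiHic5 alone, 3.06% in siCHD9siHic5 alone, 62.7% in each of them and 13.6% in neither. For BRM-list only sites these shares were 39.9%, 2.92%, 47.5% and 9.62%, and for CHD9-list only sites 9.15%, 8.32%, 79.2% and 3.33%.

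**Figure D4:**
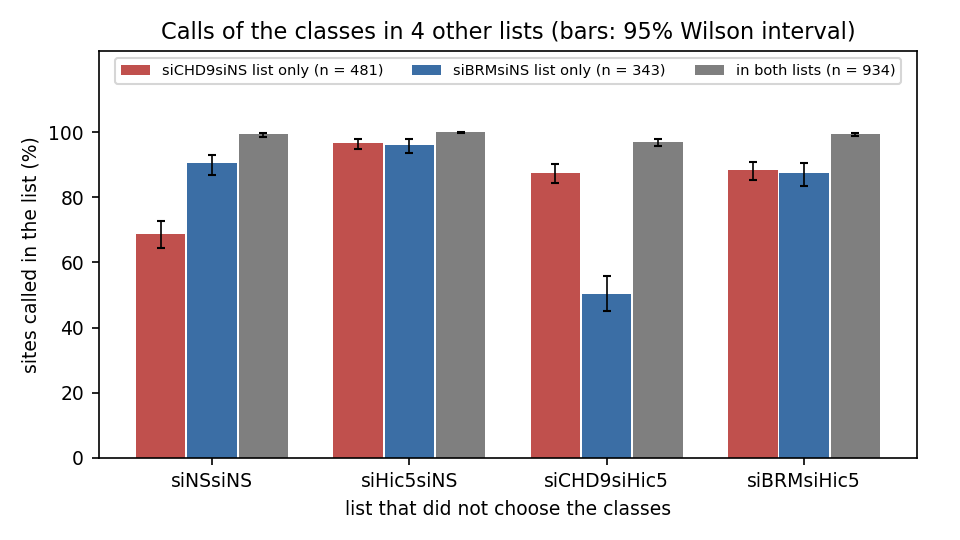
Percent of CHD9-list only, BRM-list only and shared sites that overlapped a peak of each of 4 other lists, with 95% Wilson intervals. BRM-list only sites drop to 50.4% in siCHD9siHic5, and CHD9-list only sites are lowest in siNSsiNS at 68.6%. The siCHD9siHic5 list holds 2451 GBR and the siBRMsiHic5 list 3383.

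Calls in exactly 1 of the doubly depleted lists also differed between the classes. CHD9-list only sites divided into 40 called in siCHD9siHic5 alone and 44 in siBRMsiHic5 alone, and BRM-list only sites into 10 and 137. The odds ratio was 12.5 (95% Woolf interval 5.76 to 26.9, 231 sites). For reference, siCHD9siHic5 held 12.9% of all siNSsiNS GBR called in exactly 1 of these lists and 20.9% of such siHic5siNS GBR, against 47.6% for the CHD9-list only class and 6.80% for the BRM-list only class. With both doubly depleted lists filtered at a −log10 q-value of 14.2 the odds ratio was 9.30 (2.64 to 32.7), and within sites called in the control it was 7.49 (2.75 to 20.4), both estimates added after the data were seen.

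Sites missing from the control list were more frequent after CHD9 depletion. Of the siCHD9siNS GBR 158 (11.2%, 9.63 to 12.9%) overlapped no siNSsiNS peak, against 40 siBRMsiNS GBR (3.13%, 2.31 to 4.23%). Among one-list sites the counts were 151 and 33, of which 139 and 30 were called in siHic5siNS. These 151 CHD9-list only sites were called at 85.4% in siCHD9siHic5 and 76.8% in siBRMsiHic5, and 102 of them in both. The 33 BRM-list only sites were called at 33.3% and 72.7%. An AP-1 match was held by 36.4% of the 151 and 15.2% of the 33. The 151 had a median strength of 13.5 in siCHD9siNS, against 15.1 for the CHD9-list only sites also found in the control. Only 12 CHD9-list only and 3 BRM-list only sites were in neither siNSsiNS nor siHic5siNS. The lowest −log10 q-value was higher in siNSsiNS (8.88) than in siCHD9siNS (7.62) and siBRMsiNS (7.26), so a weak peak could be missing from the control list alone. How many of the missing calls came from this was not tested. With all lists at a −log10 q-value of at least 20, the class difference in siNSsiNS calls was -14.6 points (-20.5 to -8.85).

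Of the 2582 siNSsiNS GBR, 925 (35.8%) were kept in both lists, 330 (12.8%) in siCHD9siNS only, 309 in siBRMsiNS only and 1018 (39.4%) in neither. For control GBR called in only 1 of the lists, which list that was varied with strength in the control list. In the strongest group of 516, where 93.8% were kept in both lists, 9 were kept in siCHD9siNS only and 20 in siBRMsiNS only. The second group had 60 and 102, the third 97 and 101, the fourth 88 and 59, and the weakest 76 and 27. The share of siCHD9siNS among GBR kept in exactly 1 list was thus 31.0% (17.3 to 49.2%) in the strongest group and 73.8% (64.5 to 81.3%) in the weakest. The lowest −log10 q-value was 7.62 in siCHD9siNS and 7.26 in siBRMsiNS.

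**Figure D5:**
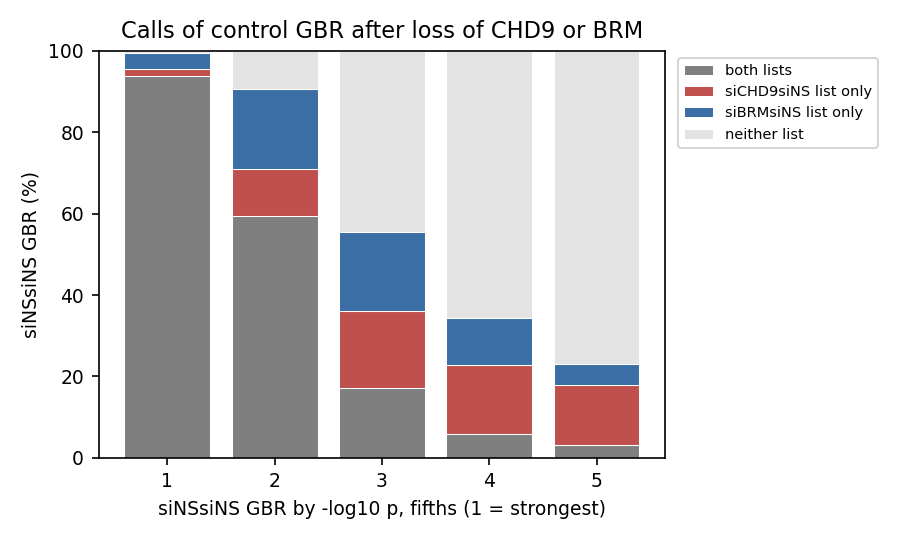
Percent of siNSsiNS GBR kept in both lists, in 1 list or in neither, over 5 equally large strength groups of the control list, ordered from the highest −log10 p-values (1) to the lowest (5). Shared calls fall from 93.8% to 3.09% across the groups, and siCHD9siNS-only calls outnumber siBRMsiNS-only calls in the last group by 76 to 27.

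Position did not separate the classes detectably. Within 1 kb of a protein-coding transcription start site (TSS) lay 3.12% of CHD9-list only and 3.21% of BRM-list only sites (difference -0.0885 points, -2.82 to 2.33). Introns held 38.5% and 42.0%, and 58.4% and 54.8% were outside protein-coding genes. The median distance to the nearest TSS was 59.1 kb and 59.0 kb, and the median GC content of the 1 kb around the summit was 46.9% and 46.7%. Sites in both lists had medians of 53.5 kb and 48.5%.

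The 10 strongest CHD9-list only sites are named by the protein-coding gene with the nearest TSS. The strongest, ranked 214 (−log10 p 41.6), was 58.6 kb upstream of TIPARP, which encodes a mono-ADP-ribosyltransferase, and it ranked 990 in siNSsiNS and 928 in siHic5siNS. The site in the RERG intron, 47.6 kb upstream of PTPRO, a receptor-type tyrosine phosphatase gene, ranked 312 of 1415 in siCHD9siNS and 303 of 2582 in the control. A site 0.231 kb upstream of METTL7B, a methyltransferase gene, ranked 318, and a site in an intron of MYL2, which encodes a myosin light chain, ranked 315. The ULK4 intron site with the adjoining GRE and AP-1 matches ranked 354 and was 128 kb from CTNNB1, the β-catenin gene. The others were nearest to FSIP2, TTC32, PWWP2A, TMEM270 and MEIS1. Of the 10, 6 had an AP-1 match and 2 a GRE match within 200 bp, and 10 were called in each doubly depleted list. All but the site near TMEM270 (chr7:73894759-73895366) were called in the control.

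The 10 strongest BRM-list only sites were all called in siNSsiNS, siHic5siNS and siBRMsiHic5, and 7 were called in siCHD9siHic5. The strongest (rank 181, −log10 p 38.5) lay in an intron of MCF2L, a guanine nucleotide exchange factor gene. It ranked 903 in the control, had no GRE or AP-1 match within 1 kb, and was 1 of the 3 sites missing from siCHD9siHic5. The others missing there were in an intron of LLGL2, a cell polarity gene, and 99.3 kb upstream of PIAS1, a SUMO ligase gene. The remaining sites were nearest to ST3GAL1, SH2D6, TRIOBP, VPS33B, F2RL1, PTPN1 and NKD2. Of the 10, 4 had a GRE match within 200 bp and 1, in an intron of F2RL1, an AP-1 match. The GRE match at the TRIOBP site, chr22:37723763-37723777 in a coding exon of this actin-binding protein gene, read AGAACATCCTGTGCC. The same 15 bases stood at chr22:37724930-37724944, in a shared site in a coding exon of TRIOBP. They also stood at chr6:35732018-35732032 in a shared site 43.1 kb from the FKBP5 TSS, which ranked 5 in siCHD9siNS and 20 in siBRMsiNS.

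The highest ranked sites in both lists were called in all 6 lists. They included the FKBP5 intron site (rank 1 in siCHD9siNS and 3 in siBRMsiNS), near the gene for a GR cochaperone, and the NFKBIA site 0.720 kb from the TSS (ranks 7 and 5), at the gene for the NF-κB inhibitor IκBα. The MT2A site 0.236 kb upstream of this metallothionein gene had rank 10 in each list. Others were nearest to OTOS, PRR20G, DECR1, TNS3 and FCRL5, and a second site at FKBP5 was nearest to ARMC12.

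Ranks of the shared sites were correlated between the lists, with Spearman's coefficient at 0.692 across the 934 sites, a description since the sites share libraries. Of these, 400 (42.8%) were within 10 percentile points. Moves of over 50 percentile points were seen at 25 sites stronger in siCHD9siNS and 16 stronger in siBRMsiNS. The largest toward siCHD9siNS was in an intron of ABHD2, at rank 293 there and 1256 in siBRMsiNS, with 3 AP-1 matches within 1 kb. The next 4 were nearest to DKK1, KIAA1217, STRIT1 and CD180, and 3 of these 5 held an AP-1 match within 200 bp. The largest toward siBRMsiNS was in a coding exon of TRIOBP (chr22:37724562-37725104), at rank 163 in siBRMsiNS and 1402 in siCHD9siNS, with 8 GRE matches within 1 kb. It lay beside the BRM-list only site in the same gene. The next 4 were nearest to PPARA, PSD3, CYRIA and FOXD4L6, and none of the 5 held an AP-1 match within 1 kb.

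For genes, one-list GBR were counted whether or not they were called in the control. A CHD9-list only GBR lay within 50 kb of the TSS of 406 of 20033 protein-coding genes (2.03%), a BRM-list only GBR near 268 (1.34%) and a GBR in both lists near 814 (4.06%). Genes with siCHD9siNS GBR and no siBRMsiNS GBR in this window numbered 332, those with the converse 228, and 8 genes had both kinds of one-list GBR. Against these shares, 10 gene lists with 224 genes were examined, of which 13 had a CHD9-list only GBR, 6 a BRM-list only GBR and 32 a GBR in both. Of the 13, 10 had no shared GBR, and neither did 5 of the 6. None had one-list GBR of both kinds. The lists were described by counts without a test.

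Of 30 canonical glucocorticoid-induced genes, 13 had no GBR of either list within 50 kb and 16 (53.3%) had a GBR in both lists, among them FKBP5 with 6, DDIT4, an inhibitor of mTORC1, with 4, and PER1, DUSP1, KLF9 and ANGPTL4 with 1 each. One-list GBR were found at 3. ERRFI1, a feedback inhibitor of the EGF receptor, had 2 CHD9-list only GBR (ranks 1391 and 1392, at the weak end of the list) and no shared one. NFKBIA had 1 CHD9-list only GBR 13.7 kb downstream of its TSS beside its strong shared one. SCNN1A, a subunit of the epithelial sodium channel, had 1 BRM-list only GBR 2.40 kb downstream and 1 shared GBR.

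Among 24 genes of the inflammation brakes and NF-κB list, 4 had CHD9-list only GBR (16.7%) and 2 had BRM-list only GBR (8.33%). A GBR in both lists was found at 5 (20.8%), against 4.06% of all genes. LIF, a cytokine of the IL-6 family, had 3 CHD9-list only GBR, 4.05 kb upstream and 13.7 and 36.2 kb downstream of its TSS, and 2 shared GBR. The 3 ranked 842, 1378 and 837 of 1415, in that order. DUSP5 and DUSP6, phosphatases that inactivate ERK, had 2 and 1 CHD9-list only GBR and none in both lists. Those of DUSP5 were at the weak end of the list (ranks 1328 and 1382), and the second was missing from the control. The DUSP6 GBR ranked 1024. DUSP4, a phosphatase of the same family, and IL1R2, the decoy receptor for IL-1, had 1 BRM-list only GBR each, at ranks 993 and 1267 of 1278.

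The focal adhesion and integrin list had 3 of 30 genes with a CHD9-list only GBR (10.0%), 0 with a BRM-list only GBR and 0 with a shared GBR. The integrin gene ITGA5 had 1 GBR 2.06 kb upstream, with an AP-1 match within 200 bp, at rank 62 in siHic5siNS and 1520 in siNSsiNS. ITGB8 had 1 GBR 0.373 kb upstream and PXN, which encodes paxillin, 1 in an intron, and these were missing from siNSsiNS and called in siHic5siNS. Among 24 genes for AP-1 and ETS factors, 2 had a GBR in both lists (8.33%) and 0 a BRM-list only GBR. A CHD9-list only GBR was found at 3. They were FOSB (in an intron of ERCC1 upstream of FOSB, with an AP-1 match within 200 bp), ETV4 (24.5 kb upstream, rank 394) and JUNB (41.0 kb upstream, with a shared GBR at 7.47 kb).

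BRM-list only GBR were found at KLF15, a dex-inducible factor of fasting metabolism, which had 2 in its introns, 1.34 and 9.77 kb downstream of the TSS, and none in both lists. They ranked 1144 and 745 of 1278. Both were called in all 4 other lists. NR1D1, the clock repressor REV-ERBα, had 1 at 25.3 kb in an intron of THRA (rank 840). BTG2, an antiproliferative gene, had 1 at 28.3 kb upstream (rank 1111) that neither doubly depleted list held. In the same lists SLC2A1, the glucose transporter GLUT1, and KLF10, a TGF-β-responsive repressor, had 1 CHD9-list only GBR each, both with an AP-1 match within 200 bp. The SLC2A1 GBR ranked 1289 and was missing from the control, while the KLF10 GBR ranked 602 and was called there. Osteoblast, TGF-β signaling and chromatin remodeler genes had 0 one-list GBR, and shared GBR at 1 of 22, 3 of 20 and 1 of 27 genes.

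The genes with the most CHD9-list only GBR within 100 kb were ZNF469, a zinc-finger gene, with 4, and LIF, CSNK1D, which encodes a casein kinase of the clock, and the keratin genes KRT7 and KRT80 with 3 each, other neighbours of these loci having as many. None had a BRM-list only GBR in that window. The keratin pair shared its 3 sites, of which 2 held AP-1 matches within 200 bp. Some of these CHD9-list only GBR were missing from siNSsiNS. They were those 25.4 and 67.0 kb upstream of ZNF469, those 57.3 kb downstream and 8.35 kb upstream of the CSNK1D TSS, and the one in the KRT7 intron. For BRM-list only GBR no gene had more than 2. KLF15 and its neighbour CFAP100, CCDC9, the amino acid transporter gene SLC6A19 and CAPG, an actin-capping gene, came first by the tie rule, and all of them had 0 CHD9-list only GBR there. The GBR 5.85 kb upstream of CCDC9 was missing from siNSsiNS.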

How the data were processed

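GR ChIP-seq had been carried out on 12 libraries, 2 replicates for each of 6 siRNA combinations, with 6 input libraries, 18 samples in all. Groups came from the sample labels. After trimming, the authors aligned reads to GRCh38/hg38 with BWA, discarded duplicates and mitochondrial alignments, called peaks on pooled replicates with MACS2 and applied the IDR framework. Versions are not given in the sources used here. The authors deposited for each peak a signal value (fold enrichment in the MACS2 format, but described by the study as enrichment in CPM, so its scale is uncertain and it served only as an alternative ranking), a −log10 p-value, the corresponding −log10 q-value and the offset of the summit. DiffBind results and input libraries were not used here, and 0 further per-sample columns were left out. The deposited values depend on depth and on the pooling, so heights were not compared between lists, and every peak was used as a call or as a rank within its list.

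From these lists were computed overlaps of at least 1 bp, shares with 95% Wilson intervals, differences with Newcombe intervals, odds ratios with Woolf intervals, and common odds ratios over 5 strength groups by the Mantel-Haenszel method. An interval that left out 0 (or an odds ratio of 1) was read as a difference between lists. All peaks ended within their hg38 sequences and 0 chromosome names were absent from the reference. Motifs were counted in 200 bp (or 1 kb) on the summit and 5 kb to either side. GENCODE release 44 gave the TSS of 20033 protein-coding genes, and "upstream" follows the gene's strand. Windows that touched an annotated UTR were not printed. Some named items are not reported here. Overlap, motif search and intervals were tested on simulated data. Python 3.11.15, NumPy 2.4.6, SciPy 1.17.1, pandas 2.3.3, pysam 0.24.0, statsmodels 0.14.6 and Matplotlib 3.10.9 were used.

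Named sites were the 10 strongest of each class (for shared sites by the sum of both ranks), the 5 largest rank moves each way, list genes with a one-list GBR within 50 kb, and the 5 genes with the most one-list GBR within 100 kb, ties taken by the count at 50 and then 10 kb. The members and gene lists were chosen with earlier results of these data known. Alternatives were peaks within 500 bp, summits within 200 bp or a larger overlap as the rule for sharing, a −log10 q-value of at least 20 or a common lowest value, only the 1000 strongest peaks, control-called sites, other motif settings, other gene distances and signal value as strength.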

Additional observations from a re-analysis of the deposited data

How the results depend on the processing

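No paired analysis was possible because each list pools its 2 replicates, and leaving out a replicate was not possible for the same reason. Of 162 alternative values for 31 results, 124 kept their direction and side of the threshold or, for shares and counts, stayed near the reported value. The AP-1 difference between the classes was 22.6 to 32.2 points under its alternatives. In 18 the sign turned or the value was 0. At a −log10 q-value of 20 these were GRE (1.36 points), SP/KLF (-1.74), ETS (-0.378), the share within 1 kb of a TSS (0.106) and siBRMsiHic5 calls (0), the last also with summits within 200 bp (-0.444). Among sites called in the control they were FOX (0.655), RUNX (1.07) and the TSS share (0.411). With the 1000 strongest peaks they were FOX (0.325), TEAD (-0.0383) and the TSS share (0.671), and at a common lowest q-value FOX (0.0706) and RUNX (0.354). FOX also turned with peaks within 500 bp (0.0129), summits within 200 bp (0.229) and 1 kb windows (0.642). The causes were not tested.

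With the doubly depleted lists at a common lowest q-value, added after seeing the data, the second AP-1 comparison was 9.91 points. The second GRE comparison turned from -5.66 to 5.72 points in that setting, the last of the 18 values whose sign turned or was 0. The GRE difference between the classes left out 0 at -9.04 points in 1 kb windows, -3.34 with at most 1 mismatch and -12.3 with at most 3. Among sites called in the control, also added later, the siBRMsiHic5 difference was 4.60 points. The odds ratio of the doubly depleted lists was 4.37 (0.0814 to 234) at a −log10 q-value of 20. CEBP and SP/KLF intervals included 0 under 3 further alternatives each. The share of siBRMsiNS GBR in that list only was 23.7% at a −log10 q-value of 20, and that of siCHD9siNS GBR 29.4% with the 1000 strongest peaks. Gene counts followed the distance by construction. CHD9-list only GBR lay near 73 genes within 10 kb and 762 within 100 kb, BRM-list only near 54 and 576, and shared near 199 and 1519. Calls depend on depth, which the lists do not give, and an absent call is no measure of GR occupancy.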

Other observations

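Of the 12 CHD9-list only sites in neither siNSsiNS nor siHic5siNS, 10 were called in siCHD9siHic5 and 3 in siBRMsiHic5. A pair of them lay 224 and 230 kb upstream of IGFBP3, which encodes an IGF-binding protein (chr7:46145372-46145791 and chr7:46150751-46151110), ranked 828 and 612 in siCHD9siNS, were called in siCHD9siHic5 and in no other list, and held no GRE or AP-1 match within 1 kb. A site in an intron of KRT7 (rank 794) had the same pattern of calls. Another lay in an intron of PECAM1 and was called in siCHD9siNS alone. The 3 such BRM-list only sites, near ZNF33B, CAPN2 and TENT4A, ranked 949 to 1278 of 1278. All these calls came from 1 pooled list each.

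Sites with 4 or more GRE matches within 1 kb numbered 4 of the 934 shared sites, 0 of 481 CHD9-list only and 0 of 343 BRM-list only sites, and 6 of all 9533 siHic5siNS GBR. They included the shared site nearest to FCRL5 with 9 matches and the TRIOBP exon site with 8.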
